A study of Homo sapiens with 6 samples.

Results

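The enzymes that carry glucose carbon through glycolysis, the pentose phosphate pathway, pyruvate entry and the citric acid cycle were described across 6 RNA-seq libraries. They were taken by gene symbol from a list of 46 pathway enzymes, drawn up with earlier results of these data known, and all 46 had a row among the 14987 genes of the deposited table. They were sorted into 8 sub-pathways: upper glycolysis (7 genes), lower glycolysis (6), lactate dehydrogenase (2), the pyruvate dehydrogenase complex (4), its kinases and phosphatase (4), the pentose phosphate pathway (6), the mitochondrial citric acid cycle (12), and cytosolic counterparts with the malic enzymes (5).

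Glycolysis splits glucose to pyruvate in the cytosol and yields ATP and NADH. Lactate dehydrogenase returns the NADH to NAD+ by turning pyruvate to lactate, and the pyruvate dehydrogenase complex instead commits pyruvate to acetyl-CoA, which the citric acid cycle oxidises in mitochondria. The pentose phosphate pathway branches off at glucose 6-phosphate and gives NADPH and ribose. Many tumour cells, colorectal carcinoma cells among them, run glycolysis to lactate at a high rate also when oxygen is present.

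The libraries came from the established colorectal carcinoma line HCT116, of human origin. The cells were NC (labelled wild type), or carried 1 of 2 YAP knockdown constructs, shYAP1 or shYAP3. Each of these 3 kinds of cell gave 1 control library and 1 library deprived of glucose for 6 h, so that 3 control libraries stood against 3 deprived ones and 2 NC libraries against 4 knockdown libraries. The study asked what YAP, a transcriptional coactivator of the Hippo pathway that acts through TEAD factors, does in the expression response to glucose deprivation; the labels name neither separate cultures nor clones, so p-values measure the spread between these libraries, and NC has no replicate within a medium.

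Listed reads ran from 16912634 to 22161075 per library. Every listed gene had a value above 0 in the NC control library, while each other library held 535 to 942 genes at 0. Having a row thus went with detection in the NC control library. Values are the authors' normalised signal per gene, in which 1 read was worth 0.0406 to 0.0693, and they are not divided by gene length. They summed to 841186 to 899067 in control and to 1018052 to 1172289 in deprived libraries, so the authors' scaling bears on every response below. YAP1 mRNA, the knockdown target, measured 188 and 154 in the NC control and deprived libraries, 35.7 and 20.3 in the shYAP1 pair, and 38.2 and 18.2 in the shYAP3 pair. Of 8 epithelial markers 7 had a row, with a summed value of 3289 to 4561 in control and 5338 to 6311 in deprived libraries. KRT8, KRT18 and KRT19 held most of this sum. KRT8, KRT18 and EPCAM rose (limma adjusted p 0.023, 0.033 and 0.024), while KRT19, CDH1 and VIL1 did not pass. CDX2 fell, from 13.5, 11.9 and 14.2 in NC, shYAP1 and shYAP3 control libraries to 8.78, 6.91 and 5.75 (limma adjusted p 0.0077). Fibroblast markers (3 of 6 with a row) summed to 8.14 to 10.3 and then 3.05 to 6.33, leukocyte markers (4 of 6) to 8.14 to 13.3 and then 12.2 to 24.0, and endothelial markers (2 of 4) to 0.50 to 1.01 and then 0.347 to 0.697. The part of the rise in the epithelial sum in the enzymes' response was not tested. Of the fibroblast, leukocyte and endothelial markers, only COL1A1, CD68 and HLA-DRA had a value of 1 or higher in 2 or more libraries. All libraries are of 1 cell line, so these sums are not read as numbers of other cells. In bulk RNA fewer cells of a kind and less RNA per cell cannot be told apart.

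Glucose deprivation raised 11 of the 46 enzymes and lowered none at an adjusted p under 0.05 (limma, over the 12263 genes with 2 or more libraries at a value of 1 or higher). The 11 were GAPDH of glycolysis, LDHB, the dehydrogenase subunit DLD and the phosphatase PDP1 of pyruvate entry, IDH3B, IDH3G, SUCLG1, SUCLG2 and SUCLA2 of the mitochondrial cycle, and MDH1 and ME2. They make up 23.9% of the enzymes, where 16.5% of all genes tested rose and 15.6% fell. On the log2(value + 1) scale the median response was 0.25 over the enzymes and 0.05 over all genes, with a range over the enzymes from -0.25 (OGDH) to 0.78 (LDHB). All 3 deprived libraries lay above all 3 control libraries for 23 enzymes, or 50% of them, where 26.8% of all genes tested did so. Only ACO1 had all deprived libraries below all control libraries, where 23.8% of all genes did so.

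These calls depended on the scaling and on single libraries. With values scaled to the listed reads, 0 enzymes were called higher and 1 lower (ACO1), where 6.08% of all genes were called higher and 31.0% lower, and the median was -0.05 over the enzymes and -0.24 over all genes. With quantile normalization 4 were called higher (DLD, SUCLG2, SUCLG1 and PGLS) and 6 lower (LDHA, TPI1, PKM, GPI, PGK1 and PGAM1), where 14.7% of all genes were called higher and 17.7% lower. Without the NC control, shYAP1 control, shYAP3 control or NC deprived library no enzyme was called, where 3.86% to 5.64% of all genes were called higher. Without the shYAP1 deprived library 10 enzymes were called higher, where 21.4% of all genes were, and without the shYAP3 deprived library 17 were, where 23.4% of all genes were. Over the 14 alternative settings tried, DLD passed the threshold in 9, SUCLG1, SUCLG2 and MDH1 in 8, LDHB and IDH3B in 7, GAPDH in 6, PDP1 and ME2 in 5, and IDH3G and SUCLA2 in 3.

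**Figure D1:**
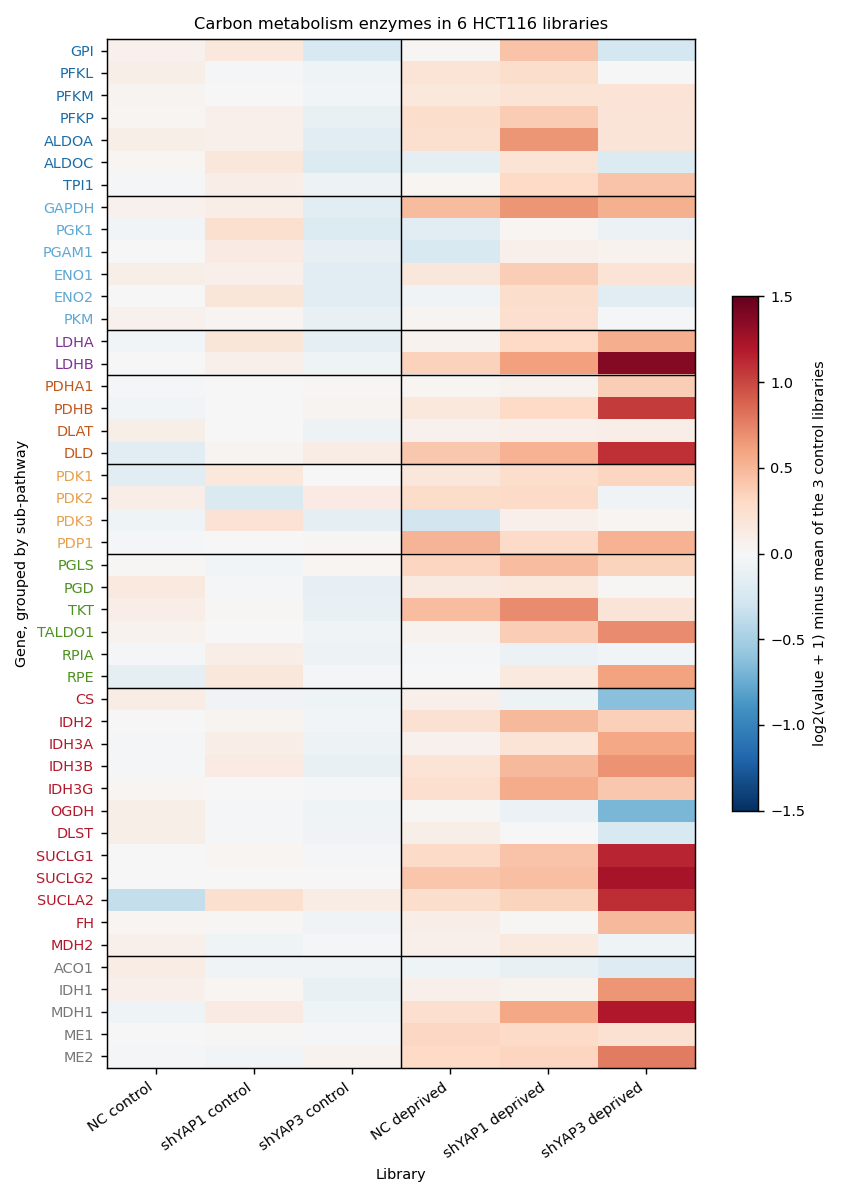
Values of the 46 enzymes in the 6 libraries, as log2(value + 1) minus each gene's mean over the 3 control libraries (colour scale from -1.5 to 1.5), with genes in rows by sub-pathway and libraries in columns. The shYAP3 deprived library holds the highest value of LDHB (2994), MDH1 (477), SUCLG1 (111) and SUCLG2 (122) and the lowest of CS (119.6) and OGDH (37.7).

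Upper glycolysis holds the steps that isomerise, phosphorylate and split the hexose. None of its 7 enzymes passed the test, where 16.5% of all genes tested rose and 15.6% fell. The median response of the 7 enzymes was 0.19 with the authors' scaling, -0.29 with quantile normalization and -0.11 with values scaled to listed reads. Its direction thus turned with the scaling. In the order NC, shYAP1, shYAP3, the platelet-type phosphofructokinase PFKP measured 431, 444 and 390.5 in control and 505, 549 and 483 in deprived libraries. Its groups did not overlap, and the log2 response was 0.28 (SE 0.14, adjusted p 0.15). The muscle-type PFKM likewise separated, with 143, 139 and 136 against 155, 161 and 161, whereas the liver-type PFKL (169, 156 and 153 against 184, 191 and 159.8) overlapped. The 3 phosphofructokinases catalyse the committed step of glycolysis.

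ALDOA, the main aldolase of proliferating cells, measured 1791, 1781 and 1499 in control and 1989, 2667 and 1927 in deprived libraries. The groups did not overlap, with the highest value in shYAP1 cells, but the log2 response of 0.37 (SE 0.19) did not pass (adjusted p 0.16). Its paralog ALDOC measured 244, 269.7 and 207 against 217, 276 and 207, overlapping, at -0.05. GPI, which isomerises glucose 6-phosphate, gave 0.06, and TPI1, which interconverts the triose phosphates, gave 0.25.

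In lower glycolysis, from the triose phosphate to pyruvate, 1 of 6 enzymes rose, near the 16.5% of all genes tested that rose. GAPDH, which oxidises glyceraldehyde 3-phosphate with NAD+, measured 5697, 5842 and 4895 in control libraries and 7602, 8676 and 7906 after deprivation. Every deprived value lay above every control value, a 1.47-fold rise (log2 0.56, SE 0.19, adjusted p 0.046). GAPDH has 61 processed pseudogenes in GENCODE v29, none with a row in the table, so its reads may be counted with some uncertainty. With quantile normalization its log2 response was 0.08 (adjusted p 0.47).

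None of the remaining 5 enzymes of lower glycolysis passed. ENO1, which dehydrates 2-phosphoglycerate, measured 4358, 4316 and 3679 in control and 4623, 5287 and 4731 in deprived libraries (log2 0.25, SE 0.18, adjusted p 0.30), with no overlap. ENO2, the neuronal-type enolase, measured 136, 156 and 122 against 132, 165 and 122 and overlapped. PGK1 and PKM, the pair of steps that make ATP, gave log2 responses of -0.07 and 0.09, and the mutase PGAM1 between them gave -0.03. The median over the 6 enzymes was 0.05, with -0.40 after quantile normalization and -0.26 scaled to listed reads. PGAM1 has 13 processed pseudogenes, which adds doubt to its counts.

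Lactate dehydrogenase is a tetramer of LDHA and LDHB subunits, of which LDHB-rich forms are the usual ones in oxidative tissue. LDHB measured 1143, 1212 and 1103 in control libraries, a mean of 1153 ± 55.3 (SD, n = 3), and 1462, 1761 and 2994 after deprivation, again in the order NC, shYAP1, shYAP3. The deprived values all lay above the control values, and the shYAP3 one stood far above the other two. The rise was 1.71-fold (log2 0.78, SE 0.23, adjusted p 0.031), and log2 0.16 with an adjusted p of 0.43 after quantile normalization.

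LDHA, the subunit abundant in glycolytic tumour cells, measured 2688, 3121 and 2514 in control and 2858, 3407 and 4034 in deprived libraries. Its groups overlapped, and the log2 response of 0.30 (SE 0.18) did not pass (adjusted p 0.23). The ratio of LDHB to LDHA per kilobase of transcript does not depend on the scaling of a library. It was 0.668, 0.610 and 0.689 in control and 0.804, 0.812 and 1.17 in deprived libraries, a mean of 0.656 ± 0.0409 against 0.927 ± 0.207 (SD, n = 3). The ratio was higher after deprivation in all 3 kinds of cell and did not overlap. The exact permutation test gave p = 0.10 (two-sided), the smallest that 3 against 3 libraries allow.

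The promoters of both lactate dehydrogenase genes, of which LDHB rose and LDHA did not pass, are shown from RefSeq (GRCh38.p14), as windows of 300 bases around a transcript start, mostly upstream of it, read along the gene's strand. LDHB lies at chr12:21657793-21658092 on the minus strand and held none of the motifs searched. LDHA has 2 windows in the table, of which the one at chr11:18394313-18394612 on the plus strand is shown, with capitals marking ACGTG, the core of the hypoxia response element, on either strand, and CACGTG, the E-box that overlaps it.
LDHB: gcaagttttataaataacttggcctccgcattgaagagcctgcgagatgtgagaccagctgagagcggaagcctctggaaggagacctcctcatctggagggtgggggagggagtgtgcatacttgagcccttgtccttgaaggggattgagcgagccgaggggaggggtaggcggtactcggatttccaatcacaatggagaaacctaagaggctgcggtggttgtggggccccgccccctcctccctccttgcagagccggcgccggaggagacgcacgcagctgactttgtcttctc
LDHA: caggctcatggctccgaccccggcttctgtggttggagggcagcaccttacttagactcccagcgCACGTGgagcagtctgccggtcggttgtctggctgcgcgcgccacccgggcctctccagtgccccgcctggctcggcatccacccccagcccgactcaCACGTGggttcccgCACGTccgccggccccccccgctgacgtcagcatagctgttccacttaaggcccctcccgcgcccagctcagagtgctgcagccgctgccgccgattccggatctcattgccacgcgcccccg

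Of the pyruvate dehydrogenase complex, 1 of the 4 subunits in the list rose, where 16.5% of all genes tested did. PDHX, a further component kept among the other pathway genes, did not pass (log2 0.39, limma adjusted p 0.055). DLD, the dihydrolipoyl dehydrogenase shared with the 2-oxoglutarate dehydrogenase complex, measured 86.6, 99.6 and 104 in control and 128, 139 and 207 in deprived libraries. The groups did not overlap (1.59-fold, log2 0.67, SE 0.17, adjusted p 0.017). DLD was higher by 0.56, 0.47 and 0.98 in NC, shYAP1 and shYAP3 cells, and it stayed called with quantile normalization, where the median of the 4 subunits was 0.21.

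PDHB, the beta subunit of the E1 decarboxylase, measured 62.4, 64.8 and 66.2 in control and 71.9, 79.8 and 134 in deprived libraries. The groups did not overlap, but the change of 0.50 (SE 0.20) did not pass (adjusted p 0.082). With the kind of cell as a block it did (adjusted p 0.043). PDHA1, the E1 subunit that the kinases phosphorylate, gave 0.15, and the acetyltransferase DLAT gave 0.08.

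PDP1, the phosphatase that switches the complex on, rose, and its kinases, which switch it off, did not pass. PDP1 measured 812, 838 and 844 in control and 1179, 1011 and 1194 in deprived libraries, a 1.35-fold rise without overlap (log2 0.44, SE 0.15, adjusted p 0.049). Unlike LDHB, its highest deprived values were in NC and shYAP3 cells at a like level. With the kind of cell as a block its adjusted p was 0.053, with quantile normalization the log2 change was -0.14, and with values scaled to listed reads the adjusted p was 0.49.

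Among the kinases, PDK1, a hypoxia-responsive form, measured 71.0, 88.8 and 79.7 against 89.8, 95.8 and 99.7, with no overlap (log2 0.25, SE 0.13, adjusted p 0.15). PDK2 measured 20.9, 16.6 and 21.3 against 23.8, 23.9 and 18.7, and PDK3 13.7, 16.8 and 12.9 against 11.7, 15.2 and 14.7, both overlapping. Per kilobase of annotated transcript, PDP1 in control medium (191 ± 3.85, SD, n = 3) was more abundant than any of the 4 complex subunits, which lay between 21.3 (DLAT) and 42.2 (PDHB), and than the kinases, at 5.63 to 7.53.

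None of the 6 pentose phosphate enzymes passed the test, where 16.5% of all genes tested rose and 15.6% fell. The median of the 6 enzymes was 0.31, and 0.13 after quantile normalization and 0.01 once scaled to listed reads. PGLS, the lactonase of the oxidative arm, measured 16.1, 15.5 and 16.2 in control and 20.1, 22.4 and 20.3 in deprived libraries. Its groups stood apart with little spread within each (log2 0.37, SE 0.14, adjusted p 0.061), and it was called with quantile normalization. TKT, the transketolase of the non-oxidative arm, measured 486, 458 and 421 against 627, 743 and 517, also without overlap and highest in shYAP1 cells (log2 0.45, SE 0.17, adjusted p 0.064; 0.043 with the block). TALDO1, the transaldolase, gave 0.37, the epimerase RPE 0.25, the 6-phosphogluconate dehydrogenase PGD 0.10 and the ribose-phosphate isomerase RPIA -0.05.

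The mitochondrial citric acid cycle held 5 of the 11 enzymes that rose, out of its 12, where 16.5% of all genes tested rose. They belong to the NAD-dependent isocitrate dehydrogenase (IDH3B and IDH3G) and to succinyl-CoA ligase, all 3 of whose subunit genes rose. The 2-oxoglutarate dehydrogenase step lies between these enzymes, and of its subunits the shared DLD rose while OGDH and DLST did not pass. The median over the 12 was 0.32, with 0.22 after quantile normalization and 0.01 scaled to listed reads. The 12 do not cover every step of the cycle. Succinate dehydrogenase (SDHA, SDHB, SDHC and SDHD), for example, was among the other pathway genes treated below, and none of its genes passed (limma adjusted p 0.52, 0.078, 0.11 and 0.14).

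Succinyl-CoA ligase makes GTP or ATP from succinyl-CoA. SUCLG1, the alpha subunit common to both forms, measured 49.5, 50.7 and 48.8 in control and 60.7, 67.3 and 111 in deprived libraries (1.54-fold, log2 0.62, SE 0.20, adjusted p 0.042). SUCLG2, the GTP-forming beta subunit, was even across control libraries at 51.5, 51.4 and 51.5 and measured 69.2, 70.7 and 122 after deprivation (1.63-fold, log2 0.70, SE 0.20, adjusted p 0.030). Both genes had close values in NC and shYAP1 cells and a higher one in shYAP3 cells, and neither overlapped between media. SUCLA2, the ATP-forming beta subunit, measured 29.7, 45.3 and 41.3 against 46, 48.6 and 83.0. Its NC deprived value lay just above the highest control value (1.48-fold, log2 0.57, SE 0.19, adjusted p 0.0498), and its adjusted p was 0.30 with length and GC trends removed. The ratio of SUCLG2 to SUCLA2 per kilobase was 1.28 ± 0.299 in control and 1.38 ± 0.0223 in deprived libraries (SD, n = 3; exact permutation p = 0.50, two-sided).

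The promoters of the 3 ligase genes, the enzyme whose every subunit rose, are shown in the same way. SUCLG1 lies at chr2:84459231-84459530, SUCLG2 at chr3:67654563-67654862 and SUCLA2 at chr13:48001224-48001523, all on the minus strand. Capitals mark the TEAD motif GGAATG, here as its reverse complement, which only the SUCLG1 window held among these 3.
SUCLG1: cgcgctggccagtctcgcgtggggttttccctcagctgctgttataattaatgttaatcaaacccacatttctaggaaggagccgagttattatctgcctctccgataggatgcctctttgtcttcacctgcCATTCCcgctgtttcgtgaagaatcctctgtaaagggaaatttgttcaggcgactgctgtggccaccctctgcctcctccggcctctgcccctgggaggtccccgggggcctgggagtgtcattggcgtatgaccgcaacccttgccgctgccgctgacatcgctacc
SUCLG2: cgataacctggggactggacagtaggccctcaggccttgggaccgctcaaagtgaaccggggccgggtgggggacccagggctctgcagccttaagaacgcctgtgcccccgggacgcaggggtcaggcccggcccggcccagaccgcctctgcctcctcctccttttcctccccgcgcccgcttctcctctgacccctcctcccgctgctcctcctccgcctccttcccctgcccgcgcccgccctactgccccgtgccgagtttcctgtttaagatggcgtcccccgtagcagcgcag
SUCLA2: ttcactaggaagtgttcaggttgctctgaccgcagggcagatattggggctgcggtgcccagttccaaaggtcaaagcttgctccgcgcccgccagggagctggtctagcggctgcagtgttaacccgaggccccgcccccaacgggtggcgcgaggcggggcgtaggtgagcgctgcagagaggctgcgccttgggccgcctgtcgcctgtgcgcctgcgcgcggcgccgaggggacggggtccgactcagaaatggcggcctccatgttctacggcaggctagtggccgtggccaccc

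IDH3 is a complex of the catalytic subunit IDH3A with IDH3B and IDH3G. IDH3B measured 80.4, 88.8 and 75.2 in control and 94.0, 114 and 130.1 in deprived libraries (1.37-fold, log2 0.46, SE 0.15, adjusted p 0.041). IDH3G measured 34.1, 33.3 and 32.5 against 39.7, 49.3 and 44.4 (1.32-fold, log2 0.40, SE 0.14, adjusted p 0.0495; 0.052 with the block). Neither overlapped, and IDH3G was highest in shYAP1 cells where IDH3B was highest in shYAP3 cells. IDH3A measured 77.7, 84.2 and 74.9 against 82.3, 91.0 and 118, overlapped, and gave 0.28 (adjusted p 0.18).

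The remaining 7 enzymes of the cycle did not pass. IDH2, the NADP-dependent mitochondrial isocitrate dehydrogenase, measured 46.7, 48.3 and 45.7 in control and 55.0, 66.0 and 60.4 in deprived libraries, without overlap (log2 0.36, SE 0.13, adjusted p 0.062). Citrate synthase (CS), the entry step, measured 200.2, 179 and 177 against 195, 175 and 119.6. OGDH, the E1 subunit of 2-oxoglutarate dehydrogenase, measured 65.5, 60.2 and 58.9 against 62.4, 57.8 and 37.7. Both overlapped between media, and both were slightly lower in NC and shYAP1 cells and clearly lower in shYAP3 cells, by log2 -0.57 and -0.63, and their log2 responses over all cells were -0.21 and -0.25 (adjusted p 0.35 and 0.28). DLST, which transfers the succinyl group, fumarase (FH) and the malate dehydrogenase MDH2 gave -0.05, 0.20 and 0.05.

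Among the 5 cytosolic counterparts and malic enzymes 2 rose, where 16.5% of all genes tested did. MDH1, the cytosolic malate dehydrogenase of the malate-aspartate shuttle, measured 198, 227 and 199 in control and 247, 311 and 477 in deprived libraries (1.60-fold, log2 0.68, SE 0.19, adjusted p 0.028). ME2, which despite its place among the cytosolic enzymes is the NAD-dependent malic enzyme of mitochondria, measured 62.5, 61.3 and 65.5 against 77.7, 79.0 and 109 (1.38-fold, log2 0.47, SE 0.16, adjusted p 0.048). Neither overlapped, and both were highest in shYAP3 cells.

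ME1, the cytosolic NADP-dependent form, measured 73.6, 74.4 and 73.0 against 91.4, 90.4 and 86.7. Its groups stood apart, but the log2 response of 0.28 (SE 0.12) did not pass (adjusted p 0.11). IDH1, the cytosolic NADP-dependent isocitrate dehydrogenase, measured 113, 109.7 and 99.4 against 113, 111 and 169.7, overlapping. ACO1, the cytosolic aconitase that also serves as an iron-responsive RNA-binding protein, measured 77.4, 69.0 and 69.2 against 68.5, 66.4 and 62.4 (log2 -0.13, SE 0.12, adjusted p 0.46). The median of the 5 was 0.28, with 0.16 after quantile normalization and -0.03 scaled to listed reads.

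**Figure D2:**
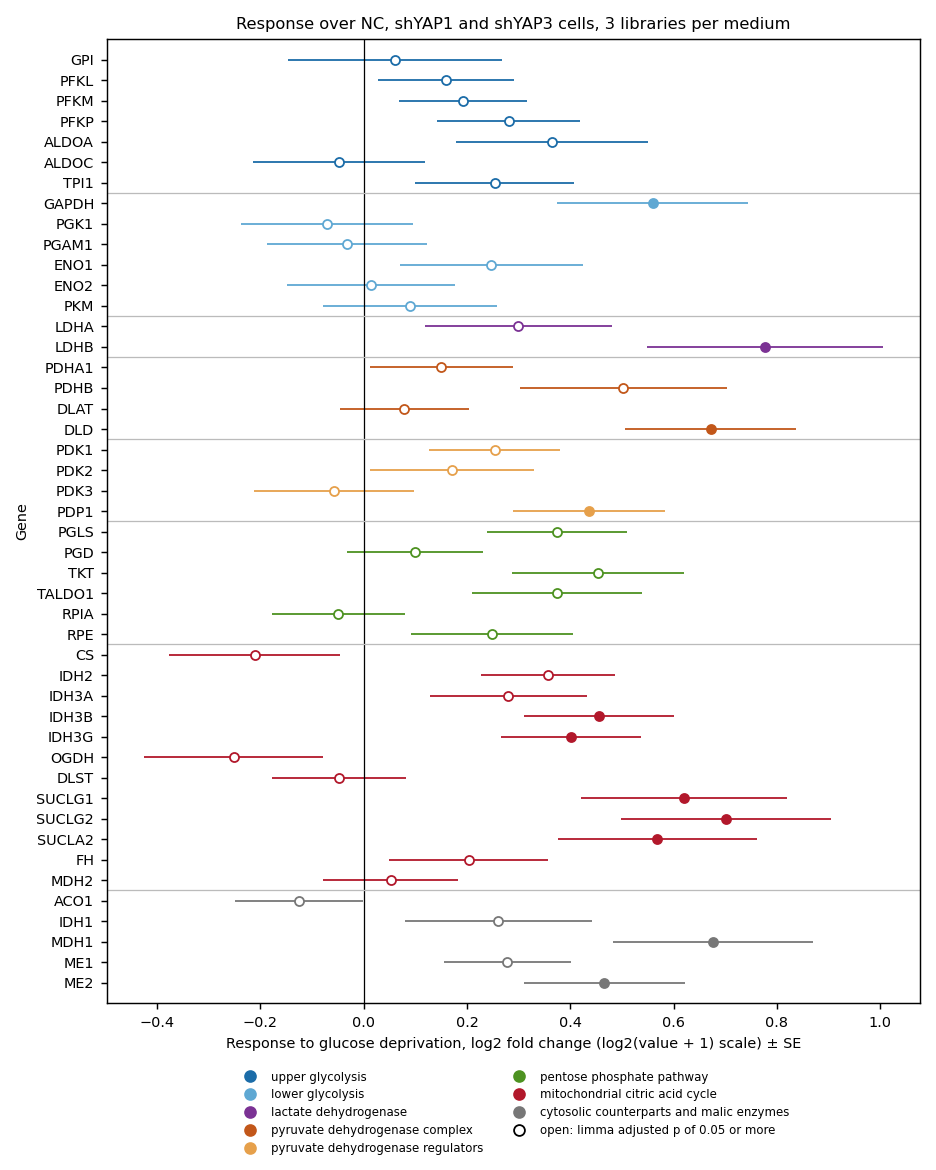
Response of each enzyme to deprivation as a log2 fold change on the log2(value + 1) scale over 3 libraries per medium, with bars of 1 SE and colours for the sub-pathways. Filled points mark the 11 enzymes at a limma adjusted p under 0.05, LDHB (0.78) and SUCLG2 (0.70) lie farthest to the right, and OGDH (-0.25) and CS (-0.21) farthest to the left, all at the authors' scaling.

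Set side by side, glycolysis with lactate dehydrogenase had 2 of 15 enzymes higher (13.3%) and a median of 0.19, and the pyruvate dehydrogenase complex with the mitochondrial cycle had 6 of 16 higher (37.5%) and a median of 0.32, where 16.5% of all genes rose. With quantile normalization the medians were -0.29 and 0.22, and scaled to listed reads -0.11 and 0.01. With length and GC trends removed they were 0.28 and 0.16, so the order of the pair turned, and the calls were 5 and 6, where 20.9% of all genes were called higher. No test of the difference between the 2 sets was made.

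**Figure D3:**
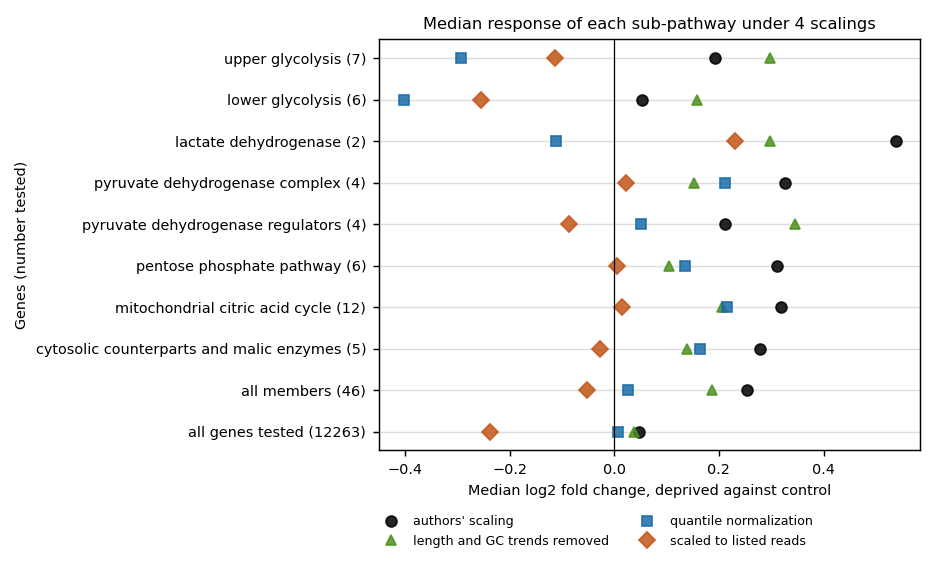
Median log2 fold change (deprived against control) of each sub-pathway, of the 46 enzymes and of all genes tested, under the authors' scaling (circles), quantile normalization (squares), removal of length and GC trends (triangles) and scaling to listed reads (diamonds), with no error bars. Upper and lower glycolysis lie above 0 at the authors' scaling (0.19 and 0.05) and below 0 after quantile normalization (-0.29 and -0.40), while the mitochondrial cycle lies at 0.32 and 0.22.

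Shares of listed reads were also taken, which amounts to the scaling to listed reads used above. The 46 enzymes took 3.20%, 3.28% and 3.004% of the NC, shYAP1 and shYAP3 control libraries and 3.11%, 3.44% and 3.04% of the deprived ones. These shares overlapped. Lactate dehydrogenase took 0.433%, 0.482% and 0.430% and then 0.424%, 0.485% and 0.599%, level in NC and shYAP1 cells and higher in shYAP3 cells. The mitochondrial cycle took 0.118%, 0.114% and 0.117% against 0.110%, 0.108% and 0.104%, a lower share in every deprived library. Its sum is weighted toward abundant members such as MDH2 and CS. At the authors' scaling the direction turned: the cycle's values summed to 1044, 1020 and 986 in control and 1117, 1151 and 1216 in deprived libraries. The pyruvate dehydrogenase complex took 0.0369%, 0.0375% and 0.0404% against 0.0372%, 0.0376% and 0.0464%.

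Levels between genes were compared per kilobase of annotated transcript, in the mean of the 3 control libraries. GAPDH stood highest at 2922 ± 272 (SD, n = 3), followed by ENO1 at 1616 ± 149 and LDHA at 1148 ± 129. TPI1 (948 ± 60.6) and PKM (941 ± 59.9) did not differ beyond their spread, nor did PGAM1 (676 ± 58.8) and ALDOA (667 ± 65.4), or PGK1 (262 ± 41.5) and GPI (254 ± 34.5). LDHB lay between these pairs at 749.6 ± 36.0. In the mitochondrial cycle MDH2 (92.8 ± 4.6), CS (62.3 ± 4.30) and IDH3B (50.3 ± 4.24) led, and OGDH (14.7 ± 0.833) was lowest. In the pentose phosphate pathway TKT (151 ± 10.9), PGD (126 ± 12.1) and TALDO1 (99.6 ± 3.42) led and PGLS (15.5 ± 0.375) was lowest.

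Of 13 ratios between isozymes or subunits, 3 did not overlap between media: LDHB to LDHA, ALDOC to ALDOA and IDH3B to IDH3A. ALDOC to ALDOA was 0.174, 0.194 and 0.177 in control and 0.139, 0.132 and 0.137 in deprived libraries, a mean of 0.182 ± 0.0105 against 0.136 ± 0.00357 (SD, n = 3). It was lower in all 3 kinds of cell with little spread. IDH3B to IDH3A was 2.63 ± 0.0646 against 2.97 ± 0.205. Their transcripts differ in length (1620 and 4128 nt). With length and GC trends removed, the log2 differences in NC, shYAP1 and shYAP3 cells were 0.25, 0.24 and 0.62 for IDH3B and 0.04, 0.16 and 0.59 for IDH3A. Each of these 3 ratios gave p = 0.10 by the two-sided exact permutation test, the smallest this design allows, and 0.43 after Benjamini-Hochberg adjustment over the 13. MDH1 to MDH2 went from 1.36 ± 0.164 to 2.21 ± 0.912, with 3.25 in the shYAP3 deprived library, and was higher in all 3 kinds of cell but overlapped (exact permutation p = 0.20). IDH1 to IDH2, at 2.53 ± 0.141 and 2.41 ± 0.631, was higher in 1 of the 3.

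**Figure D4:**
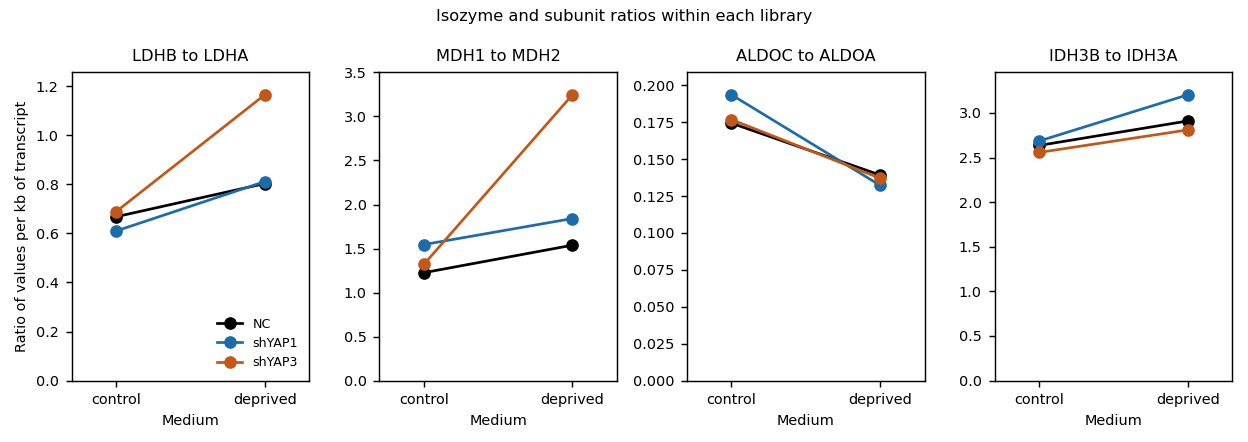
Ratios of isozymes or subunits per kilobase in the 6 libraries, with 1 panel for each of 4 ratios, medium on the x axis, and a line that joins the control and deprived library of NC, shYAP1 or shYAP3 cells. LDHB to LDHA is higher in all deprived libraries (0.804 to 1.17 against 0.610 to 0.689), and ALDOC to ALDOA lower (0.132 to 0.139 against 0.174 to 0.194).

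The 3 kinds of cell differed in how many enzymes moved past a log2 difference of 0.5, a count with 1 library per medium and no test. In NC cells 3 were higher (SUCLA2 0.62, DLD 0.56 and PDP1 0.54) and 0 lower, where 12.9% of all genes lay past the limit in each direction. In shYAP1 cells 7 were higher (ALDOA, GAPDH, LDHB, PDK2, PGLS, TKT and IDH3G) and 0 lower, with 13.1% and 13.2% of all genes. In shYAP3 cells 17 were higher and 2 lower (CS and OGDH), with 26.9% and 22.7% of all genes, so the shYAP3 pair moved more across the whole table. By sub-pathway, in the order NC, shYAP1, shYAP3, lactate dehydrogenase had medians of 0.22, 0.33 and 1.06, the pyruvate dehydrogenase complex 0.12, 0.19 and 0.67, the mitochondrial cycle 0.15, 0.16 and 0.49, and lower glycolysis -0.04, 0.15 and 0.14. Over the enzymes, 27 were higher in all 3 kinds of cell, where 35.1% of all genes tested were, and 3 were lower in all (CS, OGDH and ACO1), where 31.1% of all genes were.

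Transcript length moved with these values. Over the enzymes, Spearman's rho between annotated transcript length and response for the 3 kinds of cell, again in the order NC, shYAP1, shYAP3, was -0.10, -0.25 and -0.43 (46 genes that share a library pair), and over 12107 genes it was -0.10, -0.32 and -0.39. GC content moved with the response as well, with rho of -0.17, 0.35 and -0.36 over the enzymes and -0.32, 0.01 and -0.33 over all genes. In NC cells the relation over all genes was thus larger for GC content than for length. The 16 enzymes under 2000 nt had medians of 0.14, 0.33 and 0.52, and the 9 of 4000 nt or more had -0.02, 0.11 and 0.17. All genes under 2000 nt had medians of 0.09, 0.26 and 0.49, close to those of the short enzymes. All genes of 4000 nt or more had -0.02, -0.12 and -0.23, below the long enzymes in shYAP1 and shYAP3 cells. Of the 11 enzymes that rose, 6 were under 2000 nt (SUCLG1, IDH3G, LDHB, IDH3B, MDH1 and GAPDH), 3 lay between 2000 and 4000 nt (SUCLA2, SUCLG2 and DLD) and 2 above that (PDP1 and ME2).

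With trends of length and GC content removed from each library, the shYAP3 difference was 0.93 for LDHB, 0.92 for ME2, 0.75 for MDH1, 0.71 for SUCLG1 and 0.62 for SUCLG2. In NC cells the same genes had 0.23, 0.27, 0.19, 0.19 and 0.18, and in shYAP1 cells 0.36, 0.55, 0.29, 0.23 and 0.31. CS remained at -0.55 in shYAP3 cells, and OGDH stood at -0.16. In that fit 17 enzymes were called higher, where 20.9% of all genes were, and the median was 0.19 over the enzymes and 0.04 over all genes.

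**Figure D5:**
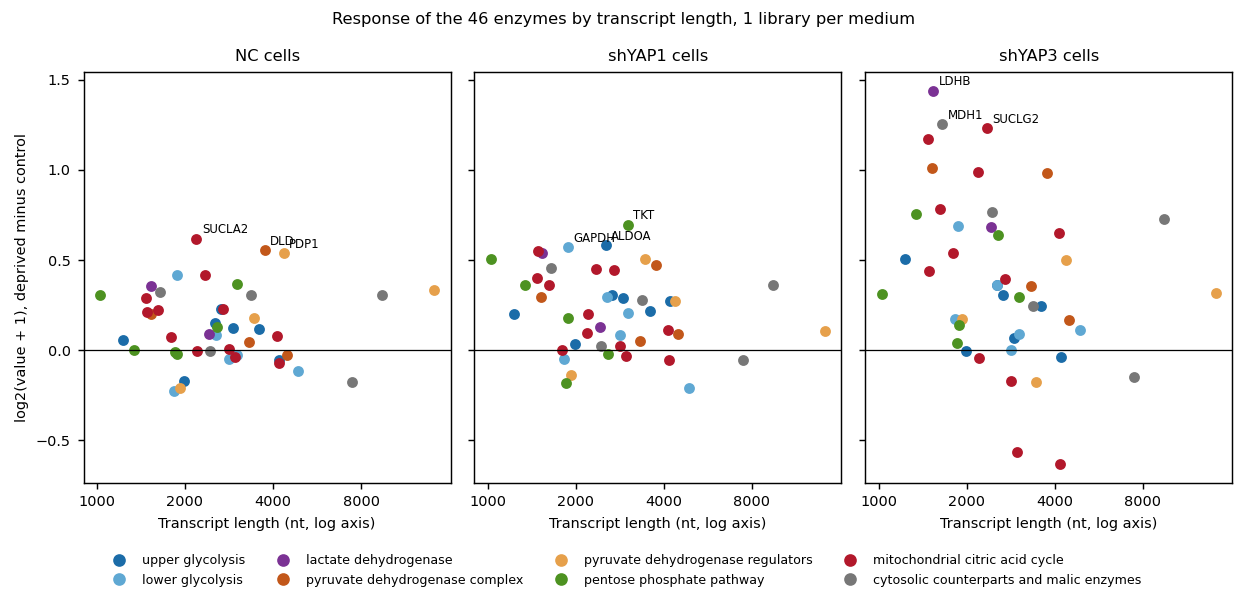
Log2 difference (deprived minus control) of each enzyme against its annotated transcript length in nt (log axis), in NC, shYAP1 and shYAP3 cells, with 1 library per medium and colours for the sub-pathways. Short transcripts lie higher in the shYAP3 panel (rho -0.43) and hardly so in the NC panel (rho -0.10). The relation to GC content is not shown.

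Other genes of these pathways were taken from a list of 38, of which 33 had a row and 26 were tested. In this list 2 rose (7.69% of those tested) and 5 fell (19.2%), where 16.5% of all genes rose and 15.6% fell. Among those that rose was the ribokinase RBKS, near the filter at 0.748, 1.18 and 1.59 in control and 1.65, 2.21 and 2.91 in deprived libraries (log2 0.58, SE 0.17, adjusted p 0.028), without overlap.

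In contrast to PDP1, the other phosphatase PDP2 fell, with 25.5, 26.6 and 24.5 against 17.0, 12 and 15.7 (log2 -0.75, SE 0.16, adjusted p 0.0090). The phosphatase regulatory subunit PDPR also fell, with 79.9, 74.6 and 77.6 against 63.9, 48.2 and 37.2 (log2 -0.66, SE 0.16, adjusted p 0.017). PDP1 was higher and PDP2 and PDPR lower in every kind of cell. SHPK, which phosphorylates sedoheptulose, fell by log2 0.77 (adjusted p 0.0047), H6PD, the hexose-6-phosphate dehydrogenase of the endoplasmic reticulum, fell by 0.62 (adjusted p 0.036), and ACLY, the citrate lyase that supplies cytosolic acetyl-CoA, fell by 0.53 (adjusted p 0.033). With length and GC trends removed, 3 of these 5 remained called. PDPR (9255 nt, log2 -0.22, adjusted p 0.093) and H6PD (9146 nt, log2 -0.10, adjusted p 0.47) did not, and PDP2 (7146 nt) did at -0.53 (adjusted p 0.017).

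YAP knockdown moved none of the 46 enzymes past the threshold over both media (4 knockdown against 2 NC libraries, limma, and also 0 with edgeR on recovered reads), where 0.00815% of all genes tested did, which was YAP1 itself (log2 -2.63, adjusted p 0.00082). The 4 knockdown libraries are 2 constructs in both media, and the 2 NC libraries are 1 kind of cell in both media. The fit counted them as separate samples, and a block on the kind of cell could not be fitted for this comparison. At an unadjusted p under 0.05 there was 1 enzyme, SUCLA2, where 7.32% of all genes passed. SUCLA2 measured 29.7 and 46 in NC control and deprived libraries, and 45.3, 41.3, 48.6 and 83.0 in knockdown libraries, overlapping (log2 0.49, limma adjusted p 0.58). The differences of the enzymes ran from -0.30 (CS) to 0.49, with a median of 0.06 against -0.01 over all genes.

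Whether the response differed between knockdown and NC cells was tested as the difference of the 2 responses, with the NC libraries assumed to vary as the knockdown ones. No enzyme passed (limma and edgeR on recovered reads). With limma, 0.0% of all genes tested passed, and 0 enzymes had an unadjusted p under 0.05, where 0.905% of genes did. The spread in this fit came only from the shYAP1 and shYAP3 libraries, since NC had 1 library per medium. So few genes passed that the lack of calls does not show like responses in NC and knockdown cells. The median difference was 0.18 over the enzymes and 0.00 over all genes. Without the shYAP1 deprived library, 8 enzymes had a higher response in knockdown cells (SUCLG2, LDHB, MDH1, SUCLG1, PDHB, IDH3A, TALDO1 and IDH1) and 2 a lower one (CS and OGDH). In that fit 12.5% of all genes were called higher and 9.80% lower. Each group but the knockdown controls then holds 1 library, so the whole spread comes from the 2 knockdown control libraries, and the lone libraries are assumed to vary like them.

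Promoter windows of 300 bases were in RefSeq for 44 of the 46 enzymes (63 windows), 10 of them among the 11 that rose. On both strands, the TEAD motif GGAATG was in 17.5% of the enzymes' windows and 14.0% of all 35116 windows. It was in 9 enzymes (20.5%, against 16.7% of all 27305 genes), among them DLD and SUCLG1. The core ACGTG was in 33.3% against 21.4% of windows and in 18 enzymes (40.9%, against 24.9% of genes), 2 of which rose. CACGTG, which contains that core, was in 9.52% against 7.26% of windows (13.6% against 8.77% of genes), in ALDOA, ALDOC, GAPDH, LDHA, PDHB and PDK2. The palindromic NRF1 motif was in 1.59% against 1.24%, in LDHA, and the ATF4 composite motif TGATGNAA was in 0 of the enzymes' windows against 3.62% of all.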

How the data were processed

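RNA-seq values of 6 HCT116 libraries were used as deposited: a normalised signal per gene, whose scaling by the authors was not given in the sources used here. The build hg19 and the aligners BWA and Bowtie2 are named in the submitters' processing notes, without their roles. Per the labels' protocols, mRNA was taken with oligo-dT beads and fragmented. In each library 100% of values were whole multiples of 1 read (tolerance 0.01 read).

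The 12263 genes with 2 or more libraries at a value of 1 or higher were tested on log2(value + 1) with limma 3.58.1 (R 4.3.3, mean-variance trend), which understates changes of low genes. The response and the knockdown came from an additive model of genotype and medium, and their difference from a model of 4 groups. Benjamini-Hochberg adjustment ran over all genes tested, with calls at 0.05. Scripts were tested on simulated data. Alternatives were quantile normalization, scaling to listed reads, a pseudocount of 0.1, no filter, no trend, edgeR 4.0.16 on recovered reads (quasi-likelihood), length and GC trends removed (mgcv 1.9.3), a replicate block and leaving out each library. The replicate block was the kind of cell (NC, shYAP1 or shYAP3). Libraries with the same number in their labels carry the same construct, which is where the pairing comes from, and their deviations from the group means correlated at 0.10.

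Lengths are of the principal or else longest transcript in GENCODE v29 (GRCh38, another build than hg19), found for 98.0% of genes and all 46 enzymes, 38 of them with a principal transcript. Promoters were from RefSeq, GRCh38.p14. The enzymes, lists and tests were chosen with earlier results of these data known. Values in every library were given for enzymes called in any test, the 2 with the smallest p in each sub-pathway and their paralogs, and other pathway genes called in the response were named, except 1 that is not reported here.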

Additional observations from a re-analysis of the deposited data

How the results depend on the processing

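The response to deprivation rested on 3 libraries per medium, with 11 enzymes higher and 0 lower. These became 4 and 6 after quantile normalization, and 0 and 1 once scaled to listed reads. With no filter on low values they were 2 and 0, where 10.9% of all genes were called higher and 11.7% lower. With edgeR on recovered reads they were 7 and 0, where 15.1% and 16.2% of all genes were called. With length and GC trends removed they were 17 and 0, where 20.9% and 17.2% of all genes were. With no mean-variance trend there were 8 higher and with a pseudocount of 0.1 there were 10, where 15.7% and 16.3% of all genes were called higher. With a replicate block on the kind of cell the count was again 11, where 19.0% of all genes were called higher. PDP1 and IDH3G were lost and PDHB and TKT gained, and the difference of the responses stayed at 0. Leaving out 1 library gave 0 to 17 higher and 0 lower enzymes in the response, and 0 to 8 higher and 0 to 2 lower in the difference of the responses. The knockdown gave 0 enzymes under all alternatives run. The cause of these changes was not tested, and leaving out a library also leaves fewer samples. Over all genes, leaving out a library gave 1086 to 5306 called responses against 3936, and the difference gave 2735 calls without the shYAP1 deprived library, 269 without the shYAP3 deprived library and 4 with the replicate block, against 0. Scaled to listed reads, 749 genes rose and 3820 fell, against 2018 and 1918.

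Log2 responses of the enzymes that changed sign were as follows. With quantile normalization they were GPI -0.52, PFKL -0.0257, PFKP -0.0203, ALDOA -0.29, TPI1 -0.40, ENO1 -0.25, ENO2 -0.16, PKM -0.56, LDHA -0.39, DLAT -0.0804, PDP1 -0.14, PGD -0.15 and MDH2 -0.17. Scaled to listed reads they were GPI -0.25, PFKL -0.15, PFKM -0.11, PFKP -0.0271, TPI1 -0.0544, ENO1 -0.0615, ENO2 -0.29, PKM -0.22, LDHA -0.00930, PDHA1 -0.15, DLAT -0.23, PDK1 -0.0515, PDK2 -0.12, PGD -0.21, RPE -0.0569, IDH3A -0.0250, FH -0.10, MDH2 -0.26, IDH1 -0.0456 and ME1 -0.0271. With length and GC trends removed they were RPE -0.17, OGDH 0.00958, DLST 0.0151, FH -0.11 and ACO1 0.14, and with edgeR ENO2 -0.00972. Leaving out 1 library gave a change of sign for 10 enzymes, with ranges of GPI -0.15 to 0.24, ALDOC -0.18 to 0.0526, PGK1 -0.20 to 0.0496, PGAM1 -0.13 to 0.0642, ENO2 -0.12 to 0.13, PKM -0.00111 to 0.15, PDK3 -0.18 to 0.0240, RPIA -0.0945 to 0.00663, DLST -0.10 to 0.0242 and MDH2 -0.0138 to 0.10. Of the enzymes that changed sign, PDP1 alone was among the 11 that rose.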
